A study of Mus musculus with 8 samples.

Results

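The bone marrow progenitors examined here expressed the genes of mitosis and stayed under fixed limits for a few genes that mark committed blood lineages. They were chosen from the transcript counts alone. A cell entered the group when at least 6 of the 8 genes Nusap1, Prc1, Cenpf, Ube2c, Mki67, Kif11, Hmmr and Top2a had at least 1 UMI (unique molecular identifier, a tag that counts a captured transcript). It also had to have 0 UMIs of the erythroid regulator Klf1 and of the megakaryocyte gene Gp1bb, fewer than 5 UMIs of the granulocyte protease Elane per 10000, and fewer than 3 of the 5 monocyte and dendritic genes F13a1, Ly86, Csf1r, Ccr2 and Irf8. Of the 10046 cells kept after quality filtering, 530 met the rule, or 5.28%. The same lineage conditions were passed by 4709 cells, of which 3200 had at most 1 of the 8 mitotic genes and served as the non-mitotic comparison.

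Cell division in the marrow supplies blood for life, and most of it takes place in progenitors, while the stem cells above them rarely divide. In mitosis Top2a untangles replicated chromosomes, Kif11 pushes the spindle poles apart, Prc1 bundles the midzone microtubules, Cenpf sits at the kinetochore, and Ube2c passes ubiquitin from the anaphase-promoting complex to the proteins that end mitosis. Interferon-α signals through its receptor (Ifnar1 and Ifnar2) and JAK kinases to the transcription factor complex ISGF3, which contains Stat2 and Irf9 and switches on a broad set of antiviral genes, and it is known for drawing stem cells out of quiescence.

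The samples were wildtype mice of 12 to 14 weeks, 4 in each of 4 groups. Treated mice received recombinant mouse IFNα under the skin at 50000 IU per 20 g of body weight, diluted in PBS, and were examined 3, 24 or 72 h later. Control mice received 100 µl of PBS. Lin- c-Kit+ (LK) marrow cells were sorted and enriched with LK CD150+ CD48- CD34- cells, so shares of cells do not stand for their frequency in marrow. Each mouse carried its own hashtag antibody and the mice of a group were pooled into a single library, so time after IFNα and library cannot be told apart. The rule found 134 control cells (43, 41, 49 and 1 in mice 1 to 4), 77 cells at 3 h (17, 11, 30 and 19), 222 at 24 h (33, 93, 41 and 55) and 97 at 72 h (23, 19, 26 and 29). Control mouse 4 had 58 kept cells in all and gave a single member, so tests of expression rest on the other 15 mice. Members had a median of 21141, 19065, 25341.5 and 22696 UMIs in the control, 3 h, 24 h and 72 h libraries, between 1.91 and 2.18 times the median of the non-mitotic cells. Summed UMIs per fitted mouse ran from 194007 (3 h mouse 2, with the fewest cells) to 2208852 (24 h mouse 2). Barcodes shared by kept cells of different libraries numbered 3 in all and 0 among the members. At least 2 of 7 listed progenitor markers, among them Kit and Cd34, were carried by 97.0% to 100% of the members per group, by 99.4% of 1725 cells with at least 20 Elane UMIs and by 55.8% of 43 cells with at least 5 Klf1 UMIs, so this share does not set the members apart.

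Around the threshold, 131 cells that passed the lineage conditions had 5 of the 8 mitotic genes, just outside, and 110 had 6, just inside, while 126 had 7 and 294 had all 8. On the lineage side, 94 otherwise qualifying cells were left out for a single Klf1 UMI, 40 for showing 3 monocyte genes against 44 kept with 2, and 6 for 5 to under 6 Elane UMIs per 10000 against 10 kept with 4 to under 5. Since the rule used these genes, their levels are a description. Levels are given throughout as CPM, each mouse's summed counts of a gene scaled to a common library size with the trimmed mean of M-values (TMM). Top2a averaged 706 CPM in control mice and 758, 645 and 718 CPM at 3, 24 and 72 h. Mki67, the proliferation antigen, averaged 415, 304, 288 and 342 CPM, and Ube2c 660, 608, 445 and 393 CPM.

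The promoters of the 8 genes carried the letters typical of genes that are held silent until late in the cell cycle. The cell cycle genes homology region (CHR), searched as TTTGAA on both strands from 250 bases before to 50 after the start site, was found in 7 of the 8 (not Nusap1) and CCAAT, the NF-Y box, in 7 of the 8. Among 104 listed mitotic genes outside the rule, 89 had a promoter in the RefSeq table (GRCm38.p6), and 51.7% held a CHR and 65.2% a CCAAT box. The shares were 13% and 39.5% over 5803 tested genes with a promoter there, and 18.1% and 37.9% over all 27025 promoters. Upstream stretches of 3 genes of the rule are shown with the CHR in capitals, since these letters are shared by most of the genes that chose the cells. On the reverse strand TTTGAA reads as TTCAAA. The stretches lie at chr2:164769799-164769928 (plus strand) for Ube2c, chr7:135716380-135716509 (minus strand) for Mki67 and chr19:37376252-37376381 (plus strand) for Kif11, each running 5′ to 3′ up to the base before the start.
Ube2c: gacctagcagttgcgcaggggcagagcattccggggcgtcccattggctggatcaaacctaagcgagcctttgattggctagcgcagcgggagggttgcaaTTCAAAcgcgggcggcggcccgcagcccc
Mki67: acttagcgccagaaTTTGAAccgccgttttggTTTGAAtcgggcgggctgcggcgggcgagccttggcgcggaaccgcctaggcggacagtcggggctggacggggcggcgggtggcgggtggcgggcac
Kif11: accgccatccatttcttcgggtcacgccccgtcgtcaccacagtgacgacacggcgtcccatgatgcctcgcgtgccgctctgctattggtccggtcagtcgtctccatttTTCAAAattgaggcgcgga
The CHR of Ube2c began 29 bases and that of Kif11 19 bases before the start, and Mki67 carried a pair of them, at 116 and 98 bases. A match of letters is a description and not a measured site.

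The mitotic programme outside the rule followed the genes that chose the cells, here also as a description in the 3 control mice with enough members, except for part of the anaphase-promoting complex. All 20 listed mitotic kinases and cyclins, all 21 kinetochore and checkpoint genes with counts and all 26 spindle motors and microtubule genes were higher in members than in non-mitotic cells of the same mouse in every control mouse, as were 16 of 17 condensation and cohesion genes and 33 of 37 S phase genes. Of 18 subunits and partners of the anaphase-promoting complex 13 were higher, with a median ratio of 1.41. Among all 9608 genes compared, 24.5% were higher and 26.9% lower in every control mouse. Among genes of at least 50 CPM in members, those with the highest ratio were Fam64a, Ska1, Neil3, Hist1h2af, Hist1h3c, Plk1, Hist1h2ab, Kif15, Ccna2 and Birc5. For 7 of these 10 a control mouse had 0 counts in its non-mitotic cells, so their ratios are uncertain. Birc5, which encodes the inner centromere protein survivin, stood at 457 CPM against 6.30 CPM, a ratio of 72.4 with 61.3 as the lowest of the 3 mice. Ccna2, the cyclin A of S and G2 phase, stood at 154 CPM against 2.01 CPM. Lower in every control mouse were all 8 stem cell markers (364 against 705 CPM summed), 6 of 7 megakaryocyte markers (73.0 against 186 CPM), 8 of 10 erythroid markers (552 against 889 CPM) and 9 of 11 genes of the interferon receptor and ISGF3. Control members had a median of 21141 UMIs against 11040.5 in non-mitotic cells, so a limit of 0 Klf1 and Gp1bb UMIs was stricter for members. Its part in the lower erythroid and megakaryocyte levels was not tested.

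Within the group, cells differed in which lineage programme they carried, so that outside committed lineages refers to the genes of the rule and not to every lineage gene. Every cell was thinned to 10000 UMIs, which left 513 members, and a list counted as carried when at least 2 of its genes had a UMI. In control mice (n = 3) granulocyte genes such as Mpo and Prtn3 were carried by 86.4% of members, stem cell genes by 55.1%, lymphoid priming genes such as Dntt and Flt3 by 42.5% and erythroid genes by 41.2%. Cells that should lack these genes set the background at the same thinning. Among 43 cells with at least 5 Klf1 UMIs, granulocyte genes were carried by 20.9%, stem cell genes by 16.3% and lymphoid genes by 0. Among 1725 cells with at least 20 Elane UMIs, lymphoid genes were carried by 19.4%, erythroid genes by 5.86% and stem cell genes by 2.67% (medians of 35817 and 32761 UMIs before thinning, against 22509 in members). The basophil and mast cell list was carried by 12.6% of control members against 24.5% of the Elane-high cells, which should lack it. Its level in control members came from few cells, as described with its genes. Programmes overlapped within cells: 169 of the 513 members carried 2 lists, 182 carried 3, 85 carried 4 and 25 carried 5. Dendritic, mature lymphocyte and stromal lists were carried by at most 1.51% of members per group on average.

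The share of members carrying each of the 11 marker lists was compared between control and treated mice. Stem cell genes were carried by 55.1%, 40.8%, 52.7% and 47.4% of members in control, 3 h, 24 h and 72 h mice. Megakaryocyte genes such as Pf4 and Itga2b were carried by 7.06%, 15.3%, 16.6% and 26.6% of members, with exact two-sided permutation p = 0.0286 at 24 h, the smallest that 4 against 3 mice allow, and 0.0571 at 72 h. All 8 mice at these times, at 12.5% to 31.6%, lay above the 3 controls, at 2.5% to 10.5%. The same list was carried by 2.33% of the Klf1 cells and 1.04% of the Elane-high cells. Basophil and mast cell genes were carried by 12.6%, 22.1%, 15.9% and 25.5% of members, and all 4 mice at 72 h, at 22.2% to 30.8%, lay above the controls, at 10.5% to 15.0% (exact permutation p = 0.0286), beside 24.5% of the Elane-high cells and 16.3% of the Klf1 cells. Monocyte genes were carried by 8.29% of control members and by 28.5% at 3 h (exact permutation p = 0.0571), beside 28.3% of the Elane-high cells and 0 of the 43 Klf1 cells. The 2 genes of this list with enough counts to be tested, Ms4a6c and Ctss, were higher at 3 h. The median log2 fold change was 2.34 in members and in non-mitotic cells. Higher levels of these genes and more monocyte-directed cells cannot be told apart in this share. The lowest adjusted p over the 33 tests of this family was 0.471. An adjusted p under 0.05 would have needed most of the tests to reach the smallest p at once, so the adjusted values do not show that the shares stayed the same.

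Whether IFNα changed how many such cells were present was asked per mouse, again at 10000 UMIs per cell. Shallower cells were left out, 16.1%, 37.3%, 11.0% and 23.5% of the kept cells in the control, 3 h, 24 h and 72 h libraries. Members made up 4.73%, 6.35%, 6.84% and 2.22% of the cells in control mice 1 to 4. The shares were 6.39%, 6.51%, 7.34% and 8.33% at 3 h, 6.32%, 7.07%, 5.81% and 5.62% at 24 h, and 4.98%, 4.99%, 4.86% and 6.85% at 72 h. Treated and control mice overlapped at every time, and means of 7.14% ± 0.897, 6.21% ± 0.644 and 5.42% ± 0.954 (SD, n = 4) against 5.03% ± 2.08 did not pass an exact permutation test (p = 0.114, 0.4 and 0.686, adjusted 0.343, 0.6 and 0.686). The sign of the difference turned at 3 h when cells were thinned to 5000 UMIs (-0.591 percentage points against 2.11), and its size moved from 0.055 with no thinning to 3.64 at 15000 UMIs. Without control mouse 4 the control mean was 5.97% ± 1.11. The difference was then 1.17 percentage points at 3 h and 0.233 at 24 h (exact permutation p = 0.229 and 0.8), against 2.11 and 1.17. At 72 h the sign turned with no thinning (-0.517 against 0.386), without control mouse 4 (-0.552) and without 72 h mouse 4 (-0.0904).

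**Figure D1:**
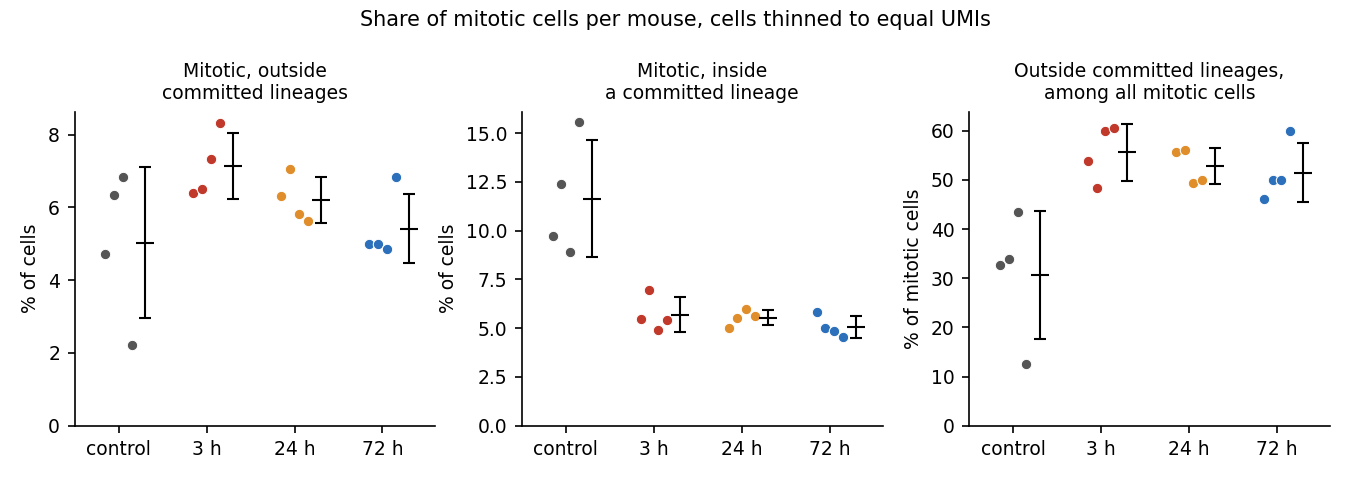
Percent of cells per mouse after thinning each cell to 10000 UMIs, for mitotic cells outside the committed lineages (left), mitotic cells inside a committed lineage (middle) and the percent of mitotic cells that were outside (right). Points are mice, bars the mean and SD by group. The left panel overlaps between groups, while every treated mouse lies below the 4 controls in the middle panel and above them in the right one.

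Mitotic cells that failed the lineage conditions of the rule were a smaller share of all cells after IFNα. They made up 11.6% ± 3.01 of control cells and 5.69%, 5.54% and 5.06% at 3, 24 and 72 h, below all 4 controls in 4 of 4 mice at each time (exact permutation p = 0.0286, adjusted p = 0.0286). Mitotic cells left out for Elane fell from 4.15% to 1.37%, 0.964% and 0.920%, and those left out for monocyte genes from 3.89% to 0.335%, 0.436% and 0.796% (each exact permutation p = 0.0286). The conditions use the levels of Elane and of the monocyte genes themselves, so fewer cells of these lineages and lower levels of these genes in them cannot be told apart. The share also depends on the other cells of each pooled library, which was enriched with sorted LK CD150+ CD48- CD34- cells. Thinning left out 16.1%, 37.3%, 11.0% and 23.5% of the control, 3 h, 24 h and 72 h cells. The parts of enrichment and thinning were not tested. Without control mouse 4 the 3 h difference of the Elane cells had p = 0.0571 by the same exact test, with the control mean at 4.06%. Erythroid mitotic cells stood at 2.41% in controls and 2.41%, 2.92% and 2.37% after IFNα (exact permutation p = 1, 0.743 and 0.943). Without control mouse 4, which had none, the control mean was 3.21% ± 0.580, and the treated means were -0.802, -0.299 and -0.843 percentage points from it (exact permutation p = 0.171, 0.514 and 0.114). The share of mitotic cells that met the lineage conditions was 32.7%, 33.9%, 43.5% and 12.5% in control mice 1 to 4 and averaged 55.7% ± 5.81, 52.8% ± 3.64 and 51.5% ± 5.96 in treated mice (exact permutation p = 0.0286 at each time). Without control mouse 4 the control mean was 36.7% ± 5.94 and the p-values were the same. These shares were defined after the values of the members were seen.

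Turning to expression, 7115 genes outside the rule were tested on the summed counts of each mouse with edgeR's quasi-likelihood test, and a call needed an adjusted p under 0.05 and a change of more than 1 on the log2 scale. At 3 h 279 genes were higher (3.92% of those tested) and 62 lower (0.871%). At 24 h 40 were higher (0.562%) and 8 lower (0.112%), and at 72 h 51 were higher (0.717%) and 24 lower (0.337%). In either direction these are 4.79%, 0.675% and 1.05% of the genes, and by the adjusted p alone 778 (10.9%), 199 (2.8%) and 323 (4.54%) changed. The shares past both thresholds are the background for the counts of calls given by list below. Of the 40 genes higher at 24 h, 37 were also higher at 3 h, as were 40 of the 51 higher at 72 h. All 3 comparisons share the same 3 control mice. With library size alone in place of TMM, the genes changed in mitotic progenitors at 3 h split into 242 higher and 135 lower, and the median of all genes moved from -0.04 to -0.19. Without control mouse 3, 275 were higher and 29 lower at 3 h.

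The interferon response of the dividing cells at 3 h was led by the signalling and effector genes of the pathway. Isg15, a ubiquitin-like modifier (chr4:156199424-156200818, mm10), stood at 52.5, 37.2 and 35.4 CPM in control mice and at 1774, 1826, 1626 and 1944 CPM at 3 h. The groups lay far apart (log2 fold change 5.43 ± 0.19, adjusted p = 5.09e-22, edgeR). At 24 h it was at 85.4, 71.5, 119.7 and 150.3 CPM, still above every control (log2 fold change 1.35 ± 0.20, adjusted p = 2.81e-05). At 72 h the values of 13, 23.7, 29.2 and 34.2 CPM all lay below the controls without passing the test (log2 fold change -0.71 ± 0.30, adjusted p = 0.197). Irf7, the factor that amplifies interferon production, went from 6.70, 16.4 and 13 CPM to 476, 439, 363 and 456 CPM (log2 fold change 5.12 ± 0.20, adjusted p = 8.09e-21). It was still at 80.3, 73.3, 61.4 and 96.4 CPM at 24 h (log2 fold change 2.67 ± 0.23, adjusted p = 1.22e-10) and at 3.71, 11.9, 8.12 and 5.40 CPM at 72 h, within the range of the controls apart from 72 h mouse 1 and mouse 4. Among the 9 tested genes of the receptor and ISGF3, Stat2 (log2 fold change 3.08 ± 0.41, adjusted p = 5.43e-07) and Irf9 (log2 fold change 1.51 ± 0.23, adjusted p = 7.85e-06) rose at 3 h beside Irf7, and Irf7 rose at 24 h, with a list median of 0.77 at 3 h beside -0.04 over all genes tested. The receptor genes gave no call: Ifnar1 changed by -0.22 ± 0.43 (adjusted p = 0.83) and Ifnar2 by -0.37 ± 0.18 (adjusted p = 0.208) on the log2 scale at 3 h.

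All 6 tested genes of the negative feedback and ISG15 conjugation list rose at 3 h, with a median log2 fold change of 2.93. Usp18, the protease that removes ISG15 and blocks the receptor, rose from 8.93, 7.65 and 11.2 CPM to 267, 340.0, 251 and 292 CPM (log2 fold change 4.88 ± 0.21, adjusted p = 2.16e-19). At 24 h it was at 20.4, 22.2, 31.2 and 36.0 CPM (log2 fold change 1.53 ± 0.28, adjusted p = 0.00042), a call lost under the stricter lineage exclusion. Socs1, the inhibitor of JAK kinases, rose from 3.35, 6.56 and 4.65 CPM to 30.8, 65.8, 41.0 and 38.6 CPM (log2 fold change 3.07 ± 0.39, adjusted p = 2.11e-07). The ISG15 conjugating enzyme Ube2l6 (2.79), the activating enzyme Uba7 (1.26) and the ligase Herc6 (2.64) rose with them. At 24 h the calls were Usp18 and Isg15. At 72 h there were 0 of 6, with 1 at an unadjusted p under 0.05, a cut for which the share of all genes is not given.

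Of 58 tested antiviral effectors, 54 rose and 0 fell at 3 h (median 3.14), 13 rose and 0 fell at 24 h (median 0.81), and 0 rose and 2 fell at 72 h (median -0.17). These were Ifi27l2a and Rtp4. Ifit1, which binds viral RNA that lacks a host cap, went from 1.12, 5.47 and 1.86 CPM to 466, 603, 329.7 and 353 CPM at 3 h (log2 fold change 7.16 ± 0.33, adjusted p = 1.13e-18) and 10.2, 13.3, 14.6 and 28.8 CPM at 24 h (log2 fold change 2.56 ± 0.55, adjusted p = 0.00391). The 24 h call was lost without control mouse 3. Rsad2, the enzyme viperin, rose from 5.58, 9.84 and 2.79 CPM to 315, 417, 249.6 and 386 CPM and then stood at 21.7, 20.4, 26.0 and 28.0 CPM, so that both times lay above every control (log2 fold change 5.76 ± 0.25 and 1.98 ± 0.36). Some genes had no count in any control mouse, and their change is a lower bound against 3 counts over the group. Ifi204, a DNA sensor, reached 71.9, 154, 78.2 and 132 CPM at 3 h and was at least 96.0-fold higher. Mx1, which encodes a GTPase, reached 71.9, 126, 50.3 and 90.0 CPM and was at least 72.0-fold higher, and Mnda reached 29.8 to 54.6 CPM and was at least 39.3-fold higher. The list median stays 3.14 with the genes at 0 set to their bound, since both bounds lie above it. Ifit3, another member of the Ifit family, had a single count in the control mice and reached 188 to 439 CPM at 3 h. Ms4a4c had the largest fitted change among the 13 genes of the list called at 24 h, where it was at 3.12 to 6.37 CPM against a single count in the controls (ratio 13.9, 95% counting interval 2.29 to 571). Its call was lost without control mouse 2 or 3 or 24 h mouse 2. Other calls at 3 h included the 2′,5′-oligoadenylate synthetase Oas1a (5.05), the RNA sensor Ifih1 (3.62), the kinase Eif2ak2 (2.82), the tetherin Bst2 (2.79), the GTPases Iigp1 (5.22) and Gbp2 (2.50), and Ifi44 (5.66).

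Interferon-stimulated response elements (ISRE), searched as GAAA, any 2 bases and GAAA again on both strands in the same 300 base promoters, were present in 56 of the 230 genes higher at 3 h that had a promoter in the table (24.3%), in 3.58% of the tested genes and in 3.49% of all promoters. The upstream stretches of Ifit1 (chr19:34640759-34640888, plus strand) and Isg15 (chr4:156200819-156200948, minus strand) are shown, with the elements in capitals, as the promoters of the effector and the modifier described above.
Ifit1: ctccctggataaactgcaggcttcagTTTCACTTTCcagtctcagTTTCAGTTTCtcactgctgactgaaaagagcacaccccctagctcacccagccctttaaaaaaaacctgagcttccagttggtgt
Isg15: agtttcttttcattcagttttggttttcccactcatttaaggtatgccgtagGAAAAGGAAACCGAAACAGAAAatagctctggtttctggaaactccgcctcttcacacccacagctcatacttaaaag
Ifit1 carried 2 elements on the reverse strand, read as TTTC on either side of the 2 bases, at 104 and 85 bases before the start. Isg15 carried 3 overlapping ones, at 78, 72 and 66 bases. As above, a match of letters is not a measured site.

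**Figure D2:**
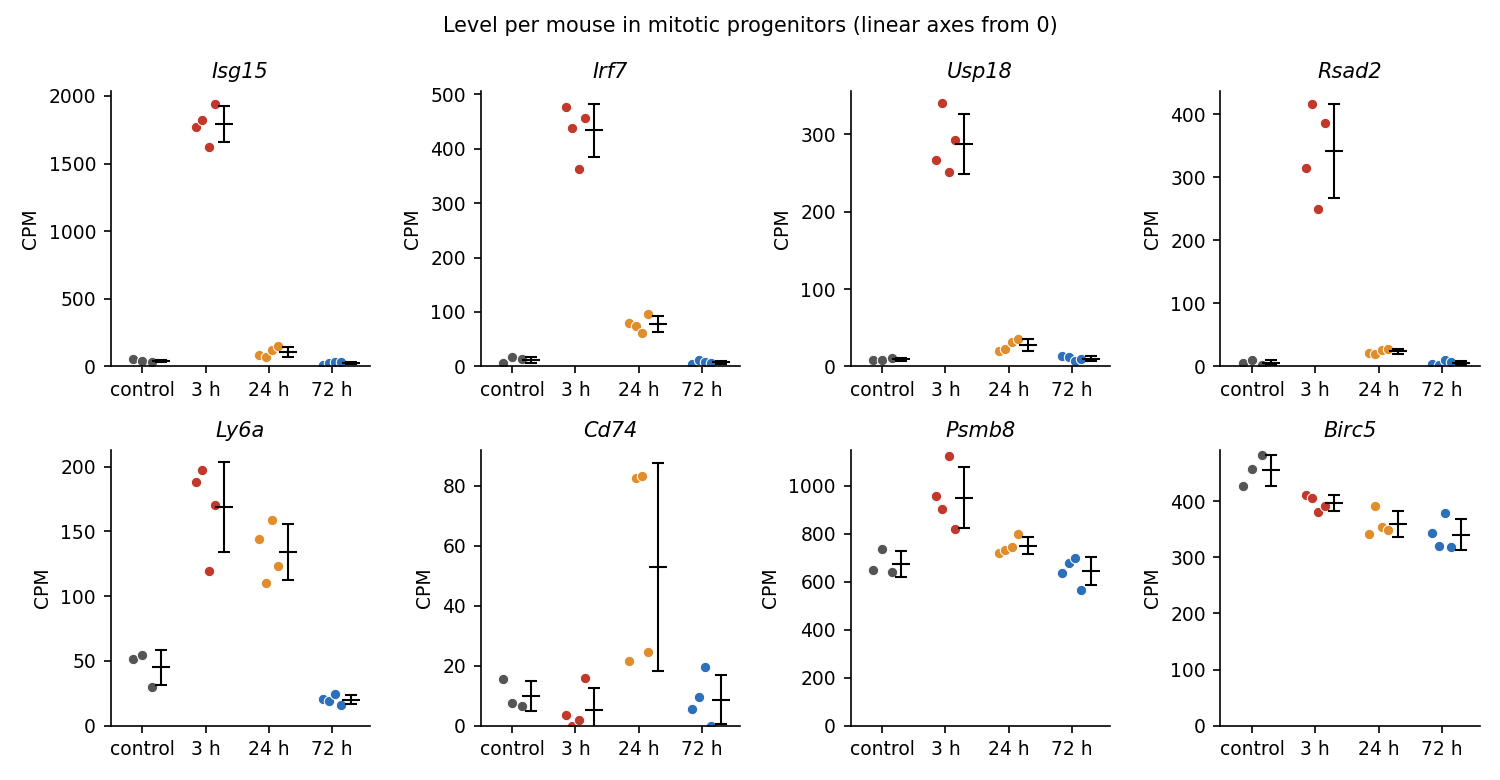
CPM per mouse in mitotic progenitors outside committed lineages for 8 genes, by group, with 3 control mice and 4 mice at each time. Points are mice and bars the mean and SD. Isg15, Irf7, Usp18 and Rsad2 peak at 3 h, Ly6a stays up at 24 h, Cd74 is up at 24 h, and Psmb8 and the mitotic gene Birc5 move by less than 1 on the log2 scale.

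Most members at 3 h had more antiviral transcripts than most control members. The summed UMIs of 61 antiviral genes per cell, at 10000 UMIs a cell, had a median of 35.0 in control members and 145 at 3 h, and 72 of 73 members at 3 h (98.6%) lay above the 95th percentile of the control members, 69.0 UMIs, while 32 (43.8%) lay above the highest control member, 153 UMIs. The share above that 95th percentile was 19.7% of 218 members at 24 h and 0 of 94 at 72 h, with medians of 51.0 and 30.5. In non-mitotic cells the medians were 44.0, 184, 73.0 and 45.0. Cells of a mouse are not replicates, so these shares are a description.

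Antigen presentation genes were called at 3 h and at 24 h, each time tested against control and not against the other time. At 3 h 5 of 23 tested genes rose, beside 3.92% of all genes tested. These were the class I genes H2-T22 (1.24) and H2-T24 (4.39), the loading factor Tapbp (1.47), the proteasome subunit Psmb10 (1.02) and Nlrc5 (2.07), the transactivator of class I genes. Psmb8, another immunoproteasome subunit, rose by 0.51 ± 0.09 (adjusted p = 0.000114), under the fold threshold. At 24 h the calls were 2 class II genes, Cd74 and H2-Aa, beside 0.562% of all genes tested that were called higher. Cd74, the invariant chain, stood at 15.6, 7.65 and 6.52 CPM in controls, 3.42, 0, 1.86 and 16.1 CPM at 3 h and 21.7, 82.7, 83.2 and 24.5 CPM at 24 h (log2 fold change 2.51 ± 0.45, adjusted p = 0.000378). H2-Aa rose from 8.93, 4.37 and 11.2 CPM to 21.7, 39.5, 41.6 and 26.6 CPM (log2 fold change 1.99 ± 0.35, adjusted p = 0.000309). All 4 mice at 24 h were above the controls for both genes, but neither was called by DESeq2. H2-Ab1, the partner chain of H2-Aa, was at 51.2 to 75.4 CPM in controls and 61.2 to 90.5 CPM at 24 h (adjusted p = 0.499). B2m changed by 0.14, 0.27 and -0.18 on the log2 scale.

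Surface and lineage markers moved in small numbers. Ly6a, which encodes the sorting antigen Sca-1, stood at 51.4, 54.7 and 29.8 CPM in controls and 188, 197, 119 and 170.3 CPM at 3 h, 144, 110.2, 159 and 123 CPM at 24 h and 20.4, 19.0, 24.3 and 16.2 CPM at 72 h. It was above every control at 3 h and 24 h and below every control at 72 h (log2 fold change 1.84 ± 0.20, 1.55 ± 0.17 and -1.14 ± 0.28, adjusted p = 7.13e-09, 7.08e-08 and 0.0115). The 72 h call was lost without control mouse 1 or 2 or 72 h mouse 4. Hlf, a transcription factor of stem cells, was at 137, 132 and 153 CPM in controls and 30.8, 115, 85.7 and 41.8 CPM at 3 h, all below the controls (log2 fold change -1.07 ± 0.26, adjusted p = 0.00315). That call was lost without control mouse 3, 3 h mouse 1 or 3 h mouse 4, and the value was 0.088 with no lineage exclusion. None of the other 4 tested stem cell markers was called. Kit (-0.40 ± 0.16, adjusted p = 0.135), Flt3 (-0.41 ± 0.32, adjusted p = 0.509) and Gata1 (0.91 ± 0.38, adjusted p = 0.135) gave no call at 3 h. Calls among the lymphoid, granulocyte, erythroid, megakaryocyte and sort marker lists were 0 of 6, 5, 5, 3 and 7 tested genes at all 3 times by edgeR and by DESeq2. At an unadjusted p under 0.05 and 3 h they held 1, 0, 1, 0 and 3 genes. The share of all genes tested at that cut is not given, so these counts are not read further. Dntt, the lymphoid enzyme that adds bases to receptor genes, ranged widely within groups, from 27.9 to 448 CPM in controls and from 20.5 to 598 CPM at 3 h.

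Monocyte and basophil markers need separate mention, because their levels moved with time. Of 7 monocyte markers 2 had enough counts to be tested, and both, Ms4a6c and Ctss, rose at 3 h. The summed level of the list was 92.7, 83.1 and 67.9 CPM in control mice, 366, 592, 335 and 289 CPM at 3 h and 149, 145, 151 and 163 CPM at 24 h, and Ms4a6c was its most abundant gene, with 67.0, 60.1 and 47.5 CPM in controls and 325, 488, 272 and 225 CPM at 3 h (log2 fold change 2.43 ± 0.20, adjusted p = 1.39e-11). The other 5 genes of the list had group means in controls and at 3 h of 0.993 and 1.37 CPM for Fn1, 4.53 and 0 CPM for Lgals3, 3.88 and 12.3 CPM for Cx3cr1, 4.64 and 11.2 CPM for Mpeg1, and 2.40 and 4.41 CPM for Klf4. The monocyte genes of the rule, whose levels in members the rule itself limits, were at 1.41 and 0.803 CPM for Csf1r and at 10.5 and 37.0 CPM for Ly86, of which 1 mouse at 3 h had 104 CPM. Ctss was at 24.0, 76.8, 13 and 41.8 CPM at 3 h, and its value turned to -0.30 with no lineage exclusion. Its 24 h call (1.67) was lost without control mouse 2 or 3 or 24 h mouse 3. The part of monocyte cells in the 3 h result was not tested. The basophil genes Prss34, Mcpt8 and Fcer1a were lower at 3 h and at 72 h (3 of 6 tested), but the control level came from few cells. Prss34 stood at 1476, 0 and 4105 CPM in control mice 1 to 3 and was found in 3 of 128 thinned control members, so control mouse 2 overlapped with the treated mice. The summed level of the list was 2263, 249 and 5901 CPM in controls and 205, 230.3, 549.5 and 479 CPM at 3 h. Without control mouse 3 the calls of Mcpt8 and Fcer1a were lost at both times, those of Fcer1a at 3 h also without 3 h mouse 1, 2 or 3, and those of Mcpt8 at 72 h also without 72 h mouse 1, 2 or 4. Cpa3, the mast cell protease, was at 128 to 484 CPM in controls and 159 to 329.7 CPM at 3 h. By group mean it was the most abundant gene of the list at each time after IFNα. In 24 h mouse 3 Prss34 stood higher, at 1103 CPM against at most 465 CPM of Cpa3 in the 24 h mice. The other 3 tested genes of the list were not called. Group means in controls, at 3 h and at 72 h were 283, 215 and 422 CPM for Cpa3, 58.0, 79.9 and 74.6 CPM for Ms4a2, a chain of the IgE receptor, and 33.4, 44.0 and 35.4 CPM for Hdc, the histamine synthase, so that 3 of the 6 fitted changes at 72 h were above 0.

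Of the lists of growth and metabolism 1 of 17 genes of Myc and growth, 2 of 14 of glycolysis and 1 of 16 of purine synthesis and salvage rose at 3 h, beside 3.92% of all genes tested. Ccnd2, the D-type cyclin that drives entry into the cell cycle, was at 84.9, 120.3 and 66.1 CPM in controls and 342, 324, 299.9 and 286 CPM at 3 h, with no overlap (log2 fold change 1.79 ± 0.16, adjusted p = 4.6e-11), and at 111, 127, 118 and 111 CPM at 24 h (adjusted p = 0.205). It was the only call among 17 tested genes of Myc and growth. Myc itself was at 128, 140.0 and 103 CPM and 137, 181, 171 and 138 CPM (log2 fold change 0.35 ± 0.15, adjusted p = 0.142). Among 14 glycolysis genes Hk2, the kinase that opens the pathway (2.09), and Pgk1 (2.01) rose at 3 h, and Pgk1 at 24 h (1.01), where the call was lost with library size alone, without control mouse 3 and without 24 h mouse 3 or 4. Of 16 genes of purine synthesis and salvage, Pnp, the salvage phosphorylase, rose at 3 h (1.16), and Nme2, a nucleoside diphosphate kinase, fell at 72 h (-1.44). Cebpb, a factor of emergency myelopoiesis, rose from 36.8, 58.0 and 78.2 CPM to 92.5, 143, 145 and 186 CPM (1.28) as the only call of 8 myeloid transcription factors.

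Genes of cell death were called for 4 of 17 at 3 h, all higher, beside 3.92% of all genes tested. They were Zbp1, a sensor of left-handed nucleic acid (6.70, 5.47 and 8.38 CPM in controls, 271, 351, 266 and 228 CPM at 3 h), the inflammatory caspase Casp4 (2.23), the death ligand Tnfsf10 (1.23) and Daxx (2.18). Zbp1 rose by 5.26 ± 0.23 (adjusted p = 2.2e-19) and is also on the antiviral list. The necroptosis genes Ripk3 (-0.46, adjusted p = 0.165) and Mlkl (0.75, adjusted p = 0.0662) and the pore former Gsdmd (0.08, adjusted p = 0.908) were not called. Zbp1 was the single call of this list at 24 h (1.49), lost under the stricter lineage exclusion, and there were 0 at 72 h.

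The largest falls at 3 h by the naming rule were the basophil genes above, Slpi and Dhrs3. Slpi, a secreted protease inhibitor, was at 71.5, 16.4 and 55.8 CPM in controls and 3.42, 11.0, 13 and 9.64 CPM at 3 h (log2 fold change -2.28 ± 0.54, adjusted p = 0.00291). It stayed low at 24 h (-1.97) and 72 h (-2.42), where DESeq2 called neither change. Dhrs3, a retinaldehyde reductase, fell from 27.9, 32.8 and 26.1 CPM to 6.85, 11.0, 5.59 and 3.21 CPM, all below the controls (log2 fold change -2.22 ± 0.45, adjusted p = 0.000457), and was back at 16.4 to 31.9 CPM at 24 h. Zfp362, a zinc finger gene, fell from 19.0, 26.2 and 14.0 CPM to 3.42, 5.48, 1.86 and 6.43 CPM (log2 fold change -2.31 ± 0.55, adjusted p = 0.00325), a call lost without 3 h mouse 3. Of 11 tested inhibitors of the cell cycle and p53 targets, Btg2 (-1.21) and Sesn1 (-1.10) fell at 3 h. The Btg2 call was lost without control mouse 2 or 3 or 3 h mouse 1, 2 or 3. The CDK inhibitors Cdkn1a (0.22 ± 0.48, adjusted p = 0.848) and Cdkn1b (-0.29 ± 0.25, adjusted p = 0.561) were not called. Immediate early and stress genes gave 1 fall of 14 at 3 h and 2 at 24 h. Fosb was at 36.8, 48.1 and 126 CPM in controls and 29.3, 26.2, 42.7 and 30.9 CPM at 24 h, and Hspa1b, a heat shock protein, at 3.35, 20.8 and 37.2 and 0, 0, 0 and 9.35 CPM. Both overlapped with the controls. The Fosb call at 24 h was lost without control mouse 3 or 24 h mouse 2, and that of Hspa1b without control mouse 2 or 3 or 24 h mouse 2.

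Few genes of the mitotic machinery passed the test. Among 20 mitotic kinases and cyclins 1 fell at 3 h and 1 at 72 h, in both cases Cdc25b, the phosphatase that activates the mitotic kinase (36.8, 24.1 and 42.8 CPM in controls, 13.7, 32.9, 9.31 and 22.5 CPM at 3 h, overlapping), a call lost without control mouse 1 or 3 at both times, without 3 h mouse 1 or 3, and without 72 h mouse 1, 3 or 4. Of 26 spindle genes Kif18b fell at 72 h (-1.09), a call lost without control mouse 2 or 3 or 72 h mouse 2, 3 or 4. Calls were 0 of 21 kinetochore and checkpoint genes, 0 of 17 condensation and cohesion genes, 0 of 18 subunits and partners of the anaphase-promoting complex and 0 of 36 S phase genes at all 3 times by edgeR, where 0.675% to 4.79% of all genes were called. An unadjusted p under 0.05 is a different cut, and the share of all genes tested that pass it is not given here. At that cut these lists held 3, 6 and 6 kinetochore genes, 2, 3 and 5 condensation genes, 6, 6 and 5 anaphase-promoting complex genes and 7, 3 and 3 S phase genes at 3, 24 and 72 h. DESeq2 called 0 of them except Pttg1, which encodes securin, at 3 h, named here after its value was seen. Of the mitotic kinases and cyclins, 11 of 20 had an unadjusted p under 0.05 at 24 h and 8 at 72 h, all lower than in control mice. Without that share, neither set of counts is read as a result about these lists. Medians of these lists lay between -0.33 and 0.18. All 26 spindle genes had a value below 0 at 24 h (median -0.23 beside -0.00 over all genes), as had 24 at 72 h (median -0.26), and with library size alone the counts were 26 and 25. The share of all genes with a value below 0 is not given, so these counts are not read further. Cdc20, the activator of the anaphase-promoting complex, was at 175, 183 and 225 CPM in controls, 127, 121, 98.7 and 154 CPM at 3 h, 153, 156, 138 and 130.2 CPM at 24 h and 124, 80.6, 156 and 148 CPM at 72 h. All treated mice lay below the controls, and the change passed the adjusted p but not the fold threshold at 3 h (log2 fold change -0.67 ± 0.17, adjusted p = 0.00446) and 72 h (log2 fold change -0.59 ± 0.15, adjusted p = 0.0121). Birc5 was at 426, 457 and 482 CPM in controls and 344, 320.1, 378 and 318 CPM at 72 h (log2 fold change -0.42 ± 0.09, adjusted p = 0.00334), likewise below every control and under the fold threshold. Plk1 (-0.35, -0.32 and -0.31), Aurka (-0.12, -0.40 and -0.29) and Ccnb1 (-0.22, -0.36 and -0.53) had adjusted p-values of 0.122 or more. These genes are expressed with those of the rule, so the values describe cells already chosen as mitotic. The 8 mitotic genes of the rule summed to 2761 to 3257 CPM in controls, 2226 to 2370 CPM at 24 h and 2175 to 2501 CPM at 72 h. Members were deeper at 24 and 72 h (medians of 25341.5 and 22696 UMIs) than in controls (21141). The rule asks for detected genes, and the part of depth in these lower values was not tested.

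**Figure D3:**
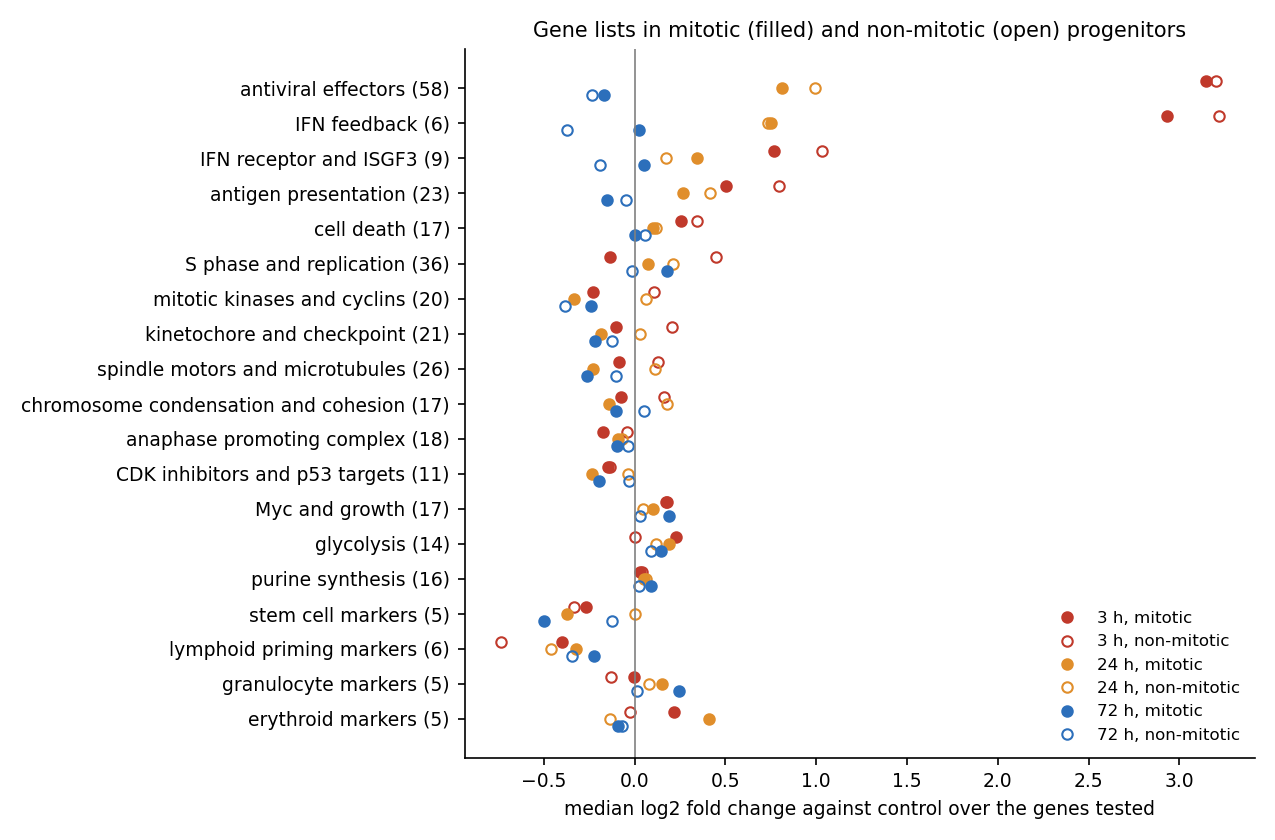
Median log2 fold change from control of the tested genes of 19 lists at 3, 24 and 72 h (colours), in mitotic progenitors outside committed lineages (filled) and in non-mitotic cells with the same lineage conditions (open). Antiviral effectors and IFN feedback stand out at 3 h with medians of 3.14 and 2.93, and the lists of mitotic genes lie near 0.

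By 24 h few genes passed both thresholds. A fitted change above 0 was still found for 56 of 58 antiviral effectors and 22 of 23 antigen presentation genes. The largest rises by the naming rule were Hist1h2ap, Irf7, Cd74, Oas1a (2.22) and Ifi27l2a. Ifi27l2a, an interferon-induced gene, was at 27.9, 61.2 and 50.3 CPM in controls, 113, 335, 83.8 and 292 CPM at 3 h and 227, 162, 208 and 192 CPM at 24 h, so that the level at 24 h lay within the range at 3 h (log2 fold change 2.05 ± 0.25, adjusted p = 6.01e-07). Besides Slpi, Fosb and Hspa1b, the falls were Slc16a11, a monocarboxylate transporter family member (-1.45), and Gprasp1 (-1.31), neither called by DESeq2. The Slc16a11 call was also lost without control mouse 2 or 3 or 24 h mouse 2, 3 or 4, and the Gprasp1 call without control mouse 1 or 3. At 72 h 0 of the tested antiviral, feedback and ISGF3 genes were called higher, with 10, 1 and 1 of them lower at an unadjusted p under 0.05. For lack of the share of all genes tested at that cut, these counts are not read further. Ifi27l2a was at 13, 19.0, 17.9 and 16.2 CPM, below every control (log2 fold change -1.50 ± 0.44, adjusted p = 0.0423), a call lost without control mouse 2 or 3 or any 72 h mouse. Of the 51 genes higher at 72 h, the largest by the naming rule were Hist1h2ap, Lsm7, a subunit of the LSm ring that binds RNA (2.26), Gm8186 (2.16), Hist1h2ae and Gm10076 (2.09). The predicted genes Gm8186 and Gm10076 may share reads with other copies and are uncertain. Mpo, the granulocyte peroxidase, was at 723, 811 and 658 CPM in controls and 923, 887, 1417 and 1043 CPM at 72 h, above every control and under the fold threshold (log2 fold change 0.55 ± 0.15, adjusted p = 0.0301).

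Histone genes made up 15 of the 51 genes higher at 72 h. They were singled out after their values were seen. Of 35 tested genes with symbols starting Hist, 23 rose at 3 h, 6 at 24 h and 15 at 72 h, with 0 falls and medians of 1.34, 0.55 and 0.96. Of all genes tested in members, 3.92%, 0.562% and 0.717% were called higher at these times. Hist1h2ap (chr13:21833026-21833507, mm10), a replication-dependent histone, was at 56.9, 73.3 and 64.2 CPM in controls, 1175, 1053, 1973 and 1542 CPM at 3 h, 493, 611, 675 and 640.0 CPM at 24 h and 446, 505, 474 and 561 CPM at 72 h, with no overlap between control and treated mice (log2 fold change 4.49 ± 0.17, adjusted p = 4.1e-21 at 3 h and log2 fold change 2.93 ± 0.17, adjusted p = 2.87e-15 at 72 h). Hist1h2ae went from 247 to 270.1 CPM to 959.6 to 1794 CPM, 559.6 to 649 CPM and 930.4 to 1278 CPM (2.44, 1.25 and 2.12). The linker histone Hist1h1b was not called (0.40, adjusted p = 0.0881). In non-mitotic cells 5, 1 and 3 of 21 tested Hist genes rose (medians 0.49, -0.02 and 0.34) and 1 fell at 24 h. Over all 10226 genes tested in non-mitotic cells, 423, 73 and 46 rose. Hist1h2ap rose there by 3.6, 2.39 and 2.29. The difference of the Hist1h2ap change between these populations was not called (adjusted p = 0.474, 1 and 0.871, edgeR). Most transcripts of these genes lack a poly(A) tail, which the library chemistry relies on, and their near-identical copies can share reads. A few ribosomal protein genes changed in both populations. Of 92 tested in members, 12 rose and 1 fell at 3 h, 1 rose at 24 h and 5 rose and 1 fell at 72 h. The shares of all genes called higher are those above, and 0.871%, 0.112% and 0.337% were called lower. Rpl35 was at 668, 648 and 568 CPM in controls, 3373, 3460.2, 3249 and 3326 CPM at 3 h, 1425, 1589, 1561 and 1479 CPM at 24 h and 2412, 2499.5, 2427 and 2389 CPM at 72 h (2.42, 1.27 and 1.95), against 2.38, 1.16 and 1.86 in non-mitotic cells. A change that all cells of a library share cannot be told apart from that library.

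**Figure D4:**
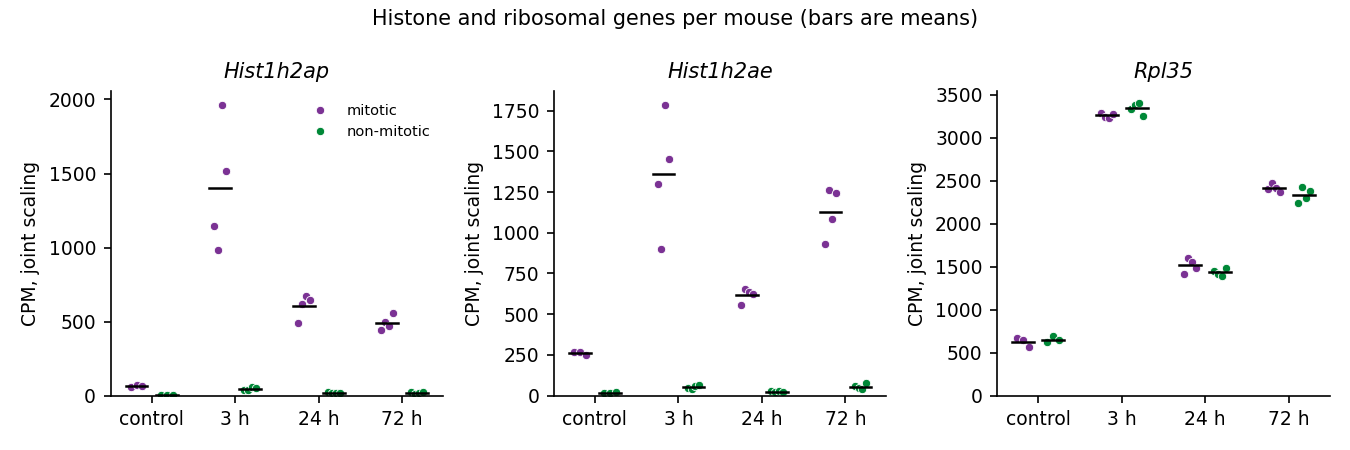
CPM per mouse, scaled jointly, of Hist1h2ap, Hist1h2ae and Rpl35 in mitotic (purple) and non-mitotic (green) progenitors outside committed lineages, with bars at the group means. The histone genes are higher in mitotic cells in every group and higher in treated than in control mice, and Rpl35 has like levels in both populations.

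Whether the dividing cells responded differently from non-mitotic ones was tested gene by gene as an interaction, with each mouse as a block, over 9608 genes. The difference is the log2 change in mitotic cells minus that in non-mitotic cells. At 3 h it was above 0 for 0 called genes and below 0 for 8 (0.0833% of those tested, edgeR), at 24 h above 0 for 3 (0.0312%) and below 0 for 0, and at 72 h 0 genes were called. By the adjusted p alone 1 was higher (0.0104%) and 21 lower (0.219%) at 3 h, and 1 was lower at 72 h (0.0104%). An unadjusted p under 0.05 was found for 681 (7.09%), 439 (4.57%) and 577 genes (6.01%). Isg15 and Irf7 did not pass this test at 3 h, with differences of -0.11 ± 0.21 for Isg15 (adjusted p = 0.961) and 0.45 ± 0.27 for Irf7 (adjusted p = 0.811). Of 59 antiviral effectors tested, 3 passed the adjusted p at 3 h, all lower, beside 0.219% of all genes. Of these 3, 1 also passed the fold threshold, Ms4a6b. The median difference of that list was -0.12, beside -0.08 over all genes. Genes of replication and chromatin were among the 8. Hells, a helicase that opens chromatin for methylation at replication (chr19:38930915-38971051, mm10), stood at 46.2, 34.6 and 39.5 CPM in non-mitotic control cells and 122, 105, 127 and 136 CPM at 3 h, with no overlap. In mitotic cells it was at 69.5, 102 and 45.9 CPM and 104, 56.5, 85.2 and 79.1 CPM, overlapping. The difference of the changes was -1.38 ± 0.26 on the log2 scale (adjusted p = 0.0073). Dck, the salvage kinase of deoxycytidine, went from 9.17, 9.67 and 9.49 CPM to 26.9, 32.1, 33.5 and 22.6 CPM in non-mitotic cells and from 28.0, 30.6 and 21.5 CPM to 23.4, 30.8, 27.8 and 12.7 CPM in mitotic cells (difference -1.78 ± 0.35, adjusted p = 0.0102). Uhrf1, which recruits the maintenance methylase (-1.18 ± 0.27, adjusted p = 0.0431), Atad2, a chromatin ATPase (-1.01 ± 0.21, adjusted p = 0.0178), and Apitd1, a centromere and DNA repair protein (-1.30 ± 0.26, adjusted p = 0.0102), were called with them. The sliding clamp Pcna (-0.90 ± 0.20, adjusted p = 0.0289) and the helicase subunit Mcm3 (-0.84 ± 0.20, adjusted p = 0.0431) passed the adjusted p alone. Their changes within mitotic cells were -0.60, -0.43, -0.36, -0.48 and -0.48, against 0.53, 0.53, 0.91, 0.35 and 0.32 in non-mitotic cells. Over the 37 S phase genes tested the median difference was -0.59, beside -0.08 over all genes, and 5 passed the adjusted p, all lower. Ms4a6b of the antiviral list (-1.22 ± 0.25), Ms4a6c of the monocyte list (-1.19 ± 0.26) and Zfp362 (-2.48 ± 0.58) completed the 8. Within mitotic cells Ms4a6b and Ms4a6c rose at 3 h, by 2.20 and 2.43.

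This comparison rested on few mice and on its scaling. The count of 8 became 0 without control mouse 2 and 3 without control mouse 1 or without 3 h mouse 4, 5 with RLE size factors, 3 with library size alone and 1 against cells with 0 of the 8 genes, and of the alternatives that gave a value for Hells, its call was lost without control mouse 2 alone. The non-mitotic cells were also shallower at 3 h (a median of 8732 UMIs) than in controls (11040.5), and the part of depth in the difference was not tested. The 3 genes at 24 h came from a single mouse. Cd79a, Vpreb3 and Mzb1, genes of B and plasma cells, were at 56.2, 86.4 and 28.1 CPM in 24 h mouse 3 and at no more than 1.44 CPM in the other 24 h mice, and without that mouse 0 of these 3 were among the calls.

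**Figure D5:**
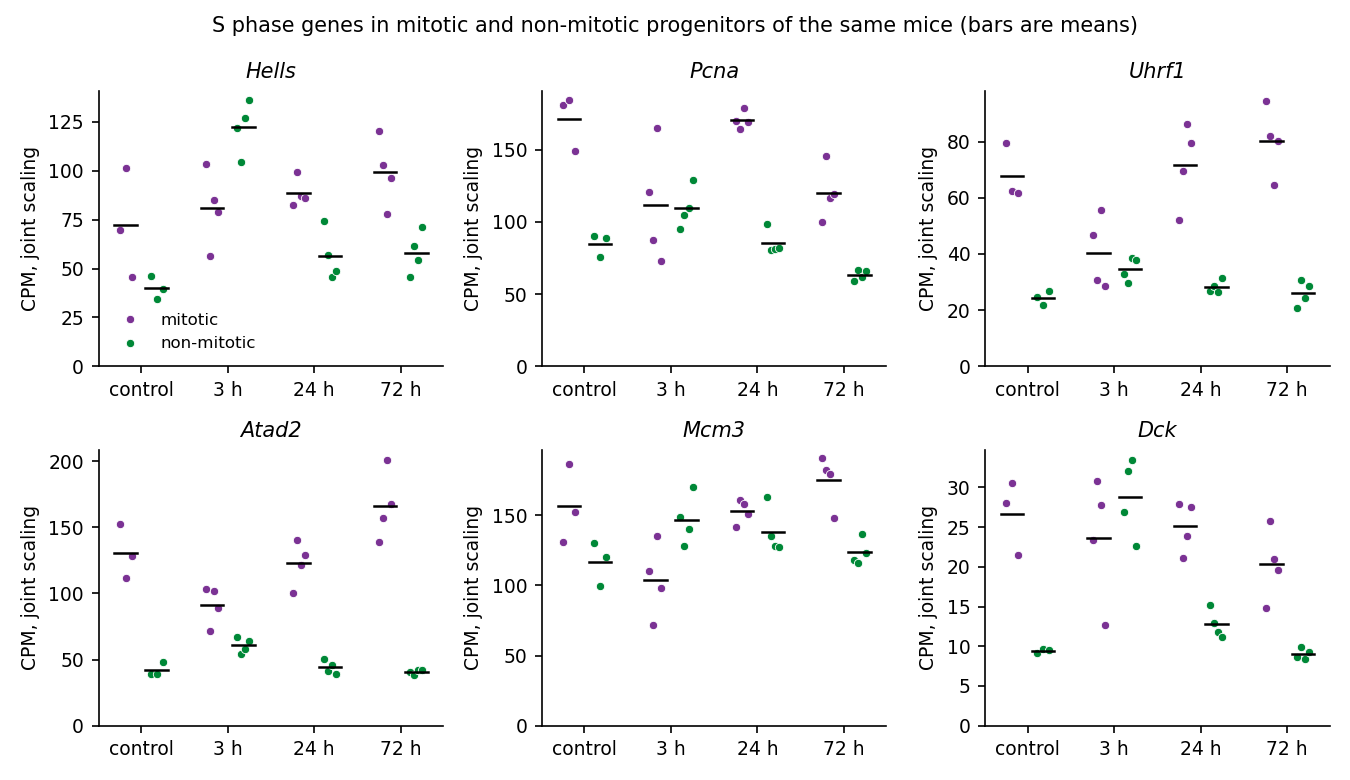
CPM per mouse, scaled jointly, of Hells, Pcna, Uhrf1, Atad2, Mcm3 and Dck in mitotic (purple) and non-mitotic (green) progenitors outside committed lineages, with bars at the group means. At 3 h Hells and Dck are above control in the 4 non-mitotic sums, while the mitotic sums overlap with control.

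Cells outside the lineages with at least 1 UMI of the stem cell gene Hlf were compared last. At 10000 UMIs per cell such a UMI was found in 53.0%, 38.2%, 52.1% and 46.6% of the cells outside the lineages in the control, 3 h, 24 h and 72 h libraries, so the set compared differed between the libraries. It was found in 7.25% of the Elane-high cells and 0 of the 43 Klf1 cells, which should lack it (medians of 32761 and 35817 UMIs before thinning, against 15604). Of the cells with an Hlf UMI, 10.7%, 16.2% and 20.4% in control mice 1 to 3 met the mitotic rule, and 0 of 6 in control mouse 4. The means were 11.8% ± 8.84 in controls and 10.9%, 10.4% and 8.28% at 3, 24 and 72 h, and the exact permutation test gave p = 0.857, 0.771 and 0.514 (adjusted p = 0.857 at each time). Without control mouse 4 the control mean was 15.8% ± 4.86 (exact permutation p = 0.143, 0.114 and 0.0857, adjusted p = 0.143 at each time), an alternative chosen after seeing the data.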

How the data were processed

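Wildtype mice (4 controls and 4 at each of 3, 24 and 72 h after IFNα) were profiled in 4 droplet libraries with 3′ UMI counting, 1 per group. The UMI counts per gene and barcode are the authors' output of Cell Ranger 3.1.0 with reads aligned to mm10 (submitters' processing notes and file headers). Hashtag tables hold total counts, the deposited call of each barcode as a mouse, multiplet or negative, made with Seurat, and a margin score whose scaling is not given in the sources used here. The score was not used.

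Cells with a single hashtag, at most 5% mitochondrial counts and at least 700 genes were kept. Hashtag multiplets were thus removed, while multiplets within a mouse remain. Counts of members were summed per mouse (at least 5 members, so control mouse 4 was left out) and tested with edgeR 4.0.16 (quasi-likelihood, filterByExpr, TMM) in R 4.3.3, with Benjamini-Hochberg adjustment over all genes tested. The 16 genes of the rule (11 passed the filter) were kept in the fit and out of the counts of calls. The difference between populations was fitted with mouse as a block. Shares were compared by exact two-sided permutation over mice, whose smallest p is 0.0286, after thinning with NumPy 2.4.6. A group with no count was set to 3 counts in all for bounds, which cover counting error only. DESeq2 1.42.0 served as an alternative.

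The members, gene lists and tests were chosen with earlier results of these data known. Named genes were, per comparison, the 5 largest rises and 5 largest falls past both thresholds with at least 20 CPM in a group and all mice on the same side of the control mean, with a fixed list of genes and the largest change of each gene list. Histone and ribosomal families, and the shares of mitotic cells inside and outside the lineages, were chosen after values were seen. Tested on simulated data, the 3 h fit recovered 62.8%, 97.0% and 99.5% of changes of 1, 2 and 3 on the log2 scale, and the fit of the population difference 53.5%, 91% and 97.5%. Recovery meant an adjusted p under 0.05 alone, without the fold threshold of a call. The share of such changes that would be called was not measured. All genes of a population were simulated with the same dispersion, unlike the real genes. Promoters came from RefSeq (GRCm38.p6). Results for some genes are not reported here.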

Additional observations from a re-analysis of the deposited data

Results flagged for a closer look

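Single mice stood apart from the other 3 of their group in 24 of 292 groups of values examined (8.22%). Chance passes the limits used in about 1 in 20 groups of evenly varying values, but a gene at 0 in 3 mice and at any level in the fourth always passes them, so the share is not read against that rate. At 72 h, mouse 4 had a share of members of 6.85% against 4.86% to 4.99% in the others. Several of the flagged values were genes of other cell types that were high in a single mouse of a group. At 24 h, mouse 3 had 56.2 CPM of Cd79a and 86.4 CPM of Vpreb3 against 0 in the others, 28.1 CPM of Mzb1 against 0 to 1.44 CPM, 1103 CPM of Prss34 against 0.444 to 153 CPM, and 5% of its members carried mature lymphocyte genes. Mature lymphocyte genes were carried by 3.85% of members in 72 h mouse 3 and dendritic genes by 1.11% in 24 h mouse 2, against 0 in the others of their groups. In 72 h mouse 3 the basophil and mast cell genes Prss34 (32.5 CPM), Fcer1a (4.87 CPM) and Cpa3 (648 CPM against 318 to 368 CPM) were high, as were Ifnar1 (29.2 CPM against 11.1 to 14.2 CPM) and Ms4a4c (1.62 CPM). In 3 h mouse 4, Prss34 and Cd79a were each at 3.21 CPM against 0, and Slc16a11 at 35.3 CPM against 6.85 to 11.0 CPM.

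Interferon genes on few counts were high in single mice, with Ifit3 at 23 CPM in 24 h mouse 4 (2.55 to 3.12 CPM in the others) and 2.37 CPM in 72 h mouse 2, Ifi204 and Mx1 each at 1.80 CPM in 72 h mouse 4, and Mnda at 0.889 CPM in 24 h mouse 2. Hspa1b was at 9.35 CPM in 24 h mouse 4 and 30.6 CPM in 72 h mouse 4, and Ms4a6b was low in 72 h mouse 2 (16.6 CPM against 30.6 to 33.4 CPM).

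The change after IFNα differed between mitotic and non-mitotic cells for 11 genes by edgeR's interaction test. At 3 h the log2 difference was -2.48 for Zfp362, -1.78 for Dck, -1.38 for Hells, -1.30 for Apitd1, -1.22 for Ms4a6b, -1.19 for Ms4a6c, -1.18 for Uhrf1 and -1.01 for Atad2. At 24 h it was 13.39 for Cd79a, 10.95 for Vpreb3 and 8.58 for Mzb1, all resting on 24 h mouse 3.

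Barcodes called hashtag multiplets, which were left out, met the mitotic rule in 11.7% of cases in the control, 10.7% in the 24 h and 7.07% in the 72 h library, against 5.42%, 6.41% and 3.96% of the kept cells, and in 3.51% (2 of 57) against 4.64% in the 3 h library. The part of undetected multiplets among the members was not tested.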

How the results depend on the processing

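The number of genes changed in mitotic progenitors at 3 h (341), 24 h (48) and 72 h (75) stayed within 1.5 times of these counts except in the following cases. With no lineage exclusion they were 589, 197 and 201. With a stricter exclusion they were 20 at 24 h and 35 at 72 h, and with no filter on low counts 86 at 24 h. Leaving out a mouse gave 304 to 355, 37 to 55 and 57 to 90. DESeq2 called 302, 34 and 62.

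For the difference between populations the main counts were 8, 3 and 0. At 3 h they were 5 with RLE size factors, 3 with library size alone, 21 with no filter and 1 against cells with 0 of the 8 genes. At 24 h they were 13 with no filter and 5 with 7 of 8 genes, and at 72 h 7 with no filter. Leaving out a mouse gave 0 to 10, 1 to 7 and 0 to 1.

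Hashtag numbers do not name a shared animal, and same-numbered mice did not deviate together (median r = 0.0153, -0.0467 to 0.0998 over 21 pairs). With the hashtag number as a replicate block, 331, 50 and 77 genes changed, and 2 differed between populations at 72 h.

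The difference in the share of members, in percentage points, was 2.11 at 3 h, 1.17 at 24 h and 0.386 at 72 h. With no lineage exclusion it was -3.84, -4.93 and -6.19, and with no thinning as well, an alternative chosen after seeing the data, -12.0, -5.35 and -10.1. Thinned to 5000 UMIs it was -0.591 at 3 h and -0.940 at 72 h. Over cells passing the exclusion it was -1.80 at 24 h and -3.04 at 72 h. At 72 h it was also -0.517 with no thinning and -0.784 with 7 of 8 genes. Leaving out a mouse gave 1.17 to 2.71, 0.233 to 1.77 and -0.552 to 0.988.

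With no lineage exclusion the sign turned for Ctss (-0.30 at 3 h, -0.045 at 24 h), Hlf (0.088) and Mpo (-1.02) at 3 h, Gprasp1 (0.036) at 24 h and Ms4a4c (-1.36) at 72 h, and no other named gene reversed. The causes were not tested. Depth limits the 3 h group, whose smallest sum was 194007 UMIs.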
